A study of Mus musculus with 24 samples.

Results

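Hippocampal RNA of mice that lost Egr1 from the neural lineage was compared with that of floxed controls that kept it, using 12 of the 24 mice of the study. The mice were chosen by genotype alone: 6 were Egr1cKO mice (Egr1fNesCre+, labelled FF (+)) and 6 were floxed controls (Egr1fNesCre-, labelled FF (-)), with 3 females and 3 males in each genotype. Both genotypes carried floxed Egr1 alleles, derived from a tm1a allele on the C57BL/6N background, and the Nes-Cre transgene (B6.Cg-Tg (Nes-Cre)1Kln/J) was present only in the Egr1cKO mice. The Nestin promoter drives Cre in neural precursors, so that recombination is inherited by neurons, astrocytes and oligodendrocytes, whereas microglia, blood vessels and meninges arise from other lineages. Because Cre was the only allele that differed within this pair, loss of Egr1 and presence of Cre cannot be told apart by it, and the other 12 mice, which had wild type Egr1 with or without Cre, were used only to set the values of Cre alone beside those of the pair. The study describes the tissue as adult, each library came from a separate mouse, and the libraries were non-stranded and made from polyadenylated RNA of the whole hippocampus.

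EGR1, also called Zif268, is a zinc finger transcription factor and the product of an immediate early gene, one of the genes switched on within minutes of neuronal activity without new protein synthesis. It binds a GC-rich element in promoters and is held in check by the corepressors NAB1 and NAB2, whose genes EGR proteins themselves activate. In the hippocampus it has been studied chiefly for its part in long-term potentiation and in the formation and recall of memory.

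Depth ranged from 18025168 to 34955004 reads assigned to genes per mouse, with the deepest library in male floxed control 1. Of 36605 genes in the table, 18074 had enough reads to be tested. The labels give the cell type as endocrine, but summed hippocampal neuron markers stood at 5575 to 8113 CPM (reads of a gene scaled to the library's total) in the 12 mice and summed endocrine markers at 1.40 to 4.18 CPM. On the first principal component, with 25.4% of the variance, 5 Egr1cKO mice lay below 0 and male Egr1cKO 3 lay among the controls at 16.4, while female control 1 at -8.71 and male control 1 at -7.28 lay on the Egr1cKO side. Without male control 1 more genes were called in many of the gene lists below, and the values without these libraries are given for the lists described at most length.

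Egr1 transcripts fell to 8.41% of the control level and did not reach 0. The gene lies on the forward strand of chromosome 18 at 34859823 to 34864984 (GRCm38). Its level was lowest at 66.6, had a median of 82.7 and was highest at 146 CPM in the 6 controls, against 4.84, 8.15 and 10.1 CPM in the 6 Egr1cKO mice. The groups were far apart, with every Egr1cKO mouse below every control in both sexes. The log2 fold change was -3.57 with a standard error (SE) of 0.189, and the adjusted p of edgeR's quasi-likelihood test was 3.02e-08. An exact two-sided permutation test of the mean log2 level over the 6 and 6 mice gave p = 0.00216, the smallest that 924 regroupings allow. Between 125 and 268 reads of the gene remained in each Egr1cKO mouse, against 1222 to 3677 in each control. Which cells or which exons those reads came from was not tested, and in whole tissue fewer cells of a type and less RNA per cell cannot be told apart for this or any gene below.

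Across all genes, 4 of 18074 passed an adjusted p of 0.05 with at least a 1.2-fold change in edgeR, or 0.0221%. Aqp4 and Tnc rose, and Egr1 and C4b fell. The same criteria in DESeq2 called 61 of 14409 genes with an adjusted p, or 0.423%, of which 43 were higher and 18 lower in Egr1cKO mice, and the 4 edgeR calls were among them. An unadjusted p under 0.05 was reached by 1425 genes that were higher (7.88% of those tested) and 1424 that were lower (7.88%). In 31 genes (0.172%) all 6 Egr1cKO mice lay above all 6 controls, and in 51 (0.282%) all 6 lay below. The count of 4 rested on single mice. It was 327 without male control 1 (247 higher, 80 lower) and 1, Egr1, without male control 2. It was 13 without male Egr1cKO 3 and 3, with C4b lost, without female control 1. Without the filter on low counts it was 808 (541 higher, 267 lower), and with the meningeal and fibroblast marker level as a covariate, described below, it was 1, with log2 fold changes of 0.80 for Aqp4, 1.14 for Tnc and -0.66 for C4b. All 4 genes were among the 327 and the 808.

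**Figure D1:**
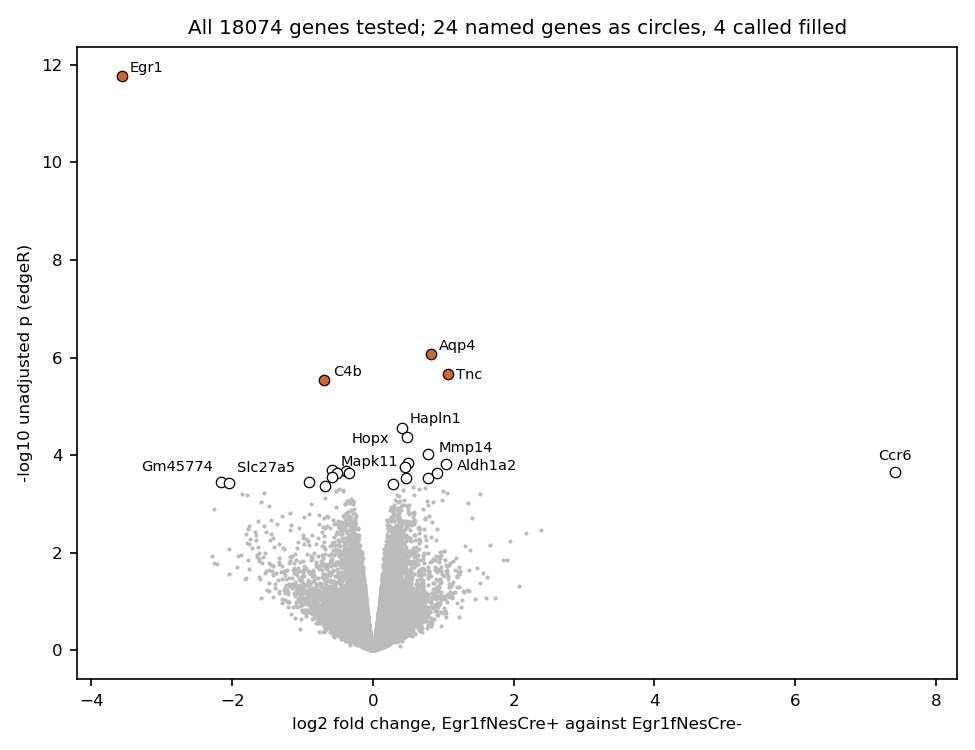
Each point is 1 of the 18074 tested genes, with the log2 fold change of Egr1cKO against floxed control mice on the horizontal axis and the -log10 of the unadjusted edgeR p on the vertical axis. The 4 called genes, Egr1, Aqp4, Tnc and C4b, stand above the rest, with Egr1 far to the left at -3.57; the place of Ccr6 on the right depends on the prior count, since all controls were at 0.

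Aqp4 encodes aquaporin 4, the water channel of astrocyte endfeet. It lies on the reverse strand of chromosome 18 at 15389496 to 15410982 and so shares its chromosome, but not its neighbourhood, with Egr1. Aqp4 was lowest at 101, had a median of 132 and was highest at 169 CPM in controls, against 195, 242 and 264 CPM in Egr1cKO mice. The ranges did not overlap. The mean went from 134 ± 23.6 to 238 ± 26.0 CPM (SD, n = 6), a log2 fold change of 0.82 (SE 0.107, edgeR adjusted p = 0.00754). The call held in 11 of the 12 fits that left out 1 mouse, the exception being the fit without male control 2 (edgeR adjusted p = 0.0535).

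Tnc encodes tenascin C, an extracellular matrix glycoprotein of developing and injured brain. It lies on the reverse strand of chromosome 4 at 63959785 to 64047015, and its exons overlap the opposite-strand gene 8030451A03Rik, whose reads cannot be told apart from its own in non-stranded libraries. Its level ran from 3.98 over a median of 5.69 to 7.39 CPM in controls and from 9.75 over 11.4 to 14.3 CPM in Egr1cKO mice, so that the lowest Egr1cKO mouse exceeded the highest control. Tnc rose 2.09-fold, from 5.68 ± 1.34 to 11.9 ± 1.62 CPM (SD, n = 6; log2 fold change 1.06, SE 0.149, edgeR adjusted p = 0.0133). The call was kept in 8 of the 12 fits without 1 mouse and was lost without male control 2 or any 1 of the 3 female Egr1cKO mice.

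C4b encodes complement component C4, which tags surfaces for complement and is made by glia. It lies on the reverse strand of chromosome 17 at 34728380 to 34743882. In controls C4b ran from 29.4 over a median of 41.2 to 49.1 CPM, and in Egr1cKO mice from 22.3 over 23.4 to 30.2 CPM. The groups overlapped at 1 point, since female control 3 had 29.4 CPM and male Egr1cKO 1 and 2 had 30.2 and 29.5 CPM. C4b fell from 40.7 ± 6.82 to 25.3 ± 3.57 CPM (SD, n = 6; log2 fold change -0.69, SE 0.0992, edgeR adjusted p = 0.0133). The call was kept in 7 of the 12 fits without 1 mouse and was lost without male control 2, female control 1 or any 1 of the 3 female Egr1cKO mice. C4a, a near-identical copy, had a mean of 3.88 CPM in controls and 2.33 CPM in Egr1cKO mice (log2 fold change -0.75, edgeR adjusted p = 0.264), and the counting may have split reads between both copies.

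**Figure D2:**
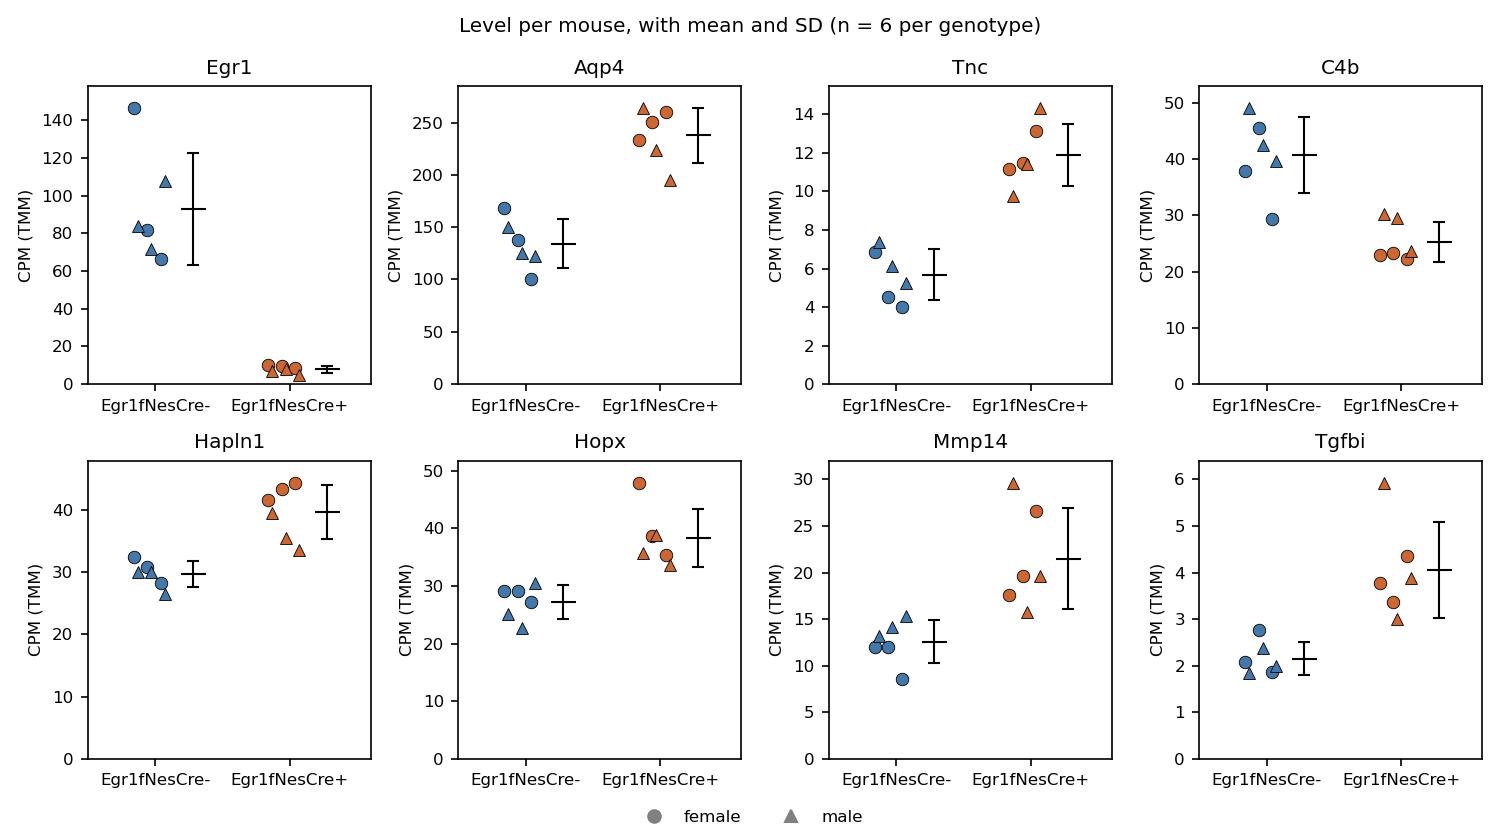
Normalised level (CPM) of the leading genes in each of the 12 mice, with 1 point per mouse, sexes marked apart, and the mean and SD of each group. Egr1, Aqp4 and Tnc show no overlap between the 6 floxed controls and the 6 Egr1cKO mice, and C4b overlaps through female control 3 at 29.4 CPM.

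The next 20 genes by p did not pass the test. Their edgeR adjusted p values lay between 0.098 and 0.243, 11 were higher and 9 lower in Egr1cKO mice, and DESeq2 called 17 of them. The 11 include Ccr6, and the 9 include Slc27a5 and Gm45774, which passed the filter on low counts through a single genotype, as given below. In 5 of the 11 every Egr1cKO mouse lay above every control, and in 2 of the 9 every one lay below.

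Matrix and meningeal genes made up part of this group. Hapln1, which links hyaluronan to proteoglycans in perineuronal nets, ran from 26.4 over a median of 30.1 to 32.5 CPM in controls and from 33.5 over 40.5 to 44.4 CPM in Egr1cKO mice (log2 fold change 0.41, SE 0.0711, edgeR adjusted p = 0.098). Mmp14, a membrane-bound matrix metalloproteinase, ran from 8.62 over 12.6 to 15.4 and from 15.8 over 19.6 to 29.6 CPM (0.78, SE 0.152, edgeR adjusted p = 0.243). Neither gene's groups overlapped. The same held for Tgfbi, a secreted matrix protein induced by TGF-beta, at 1.85 to 2.76 CPM in controls and 3.00 to 5.93 CPM in Egr1cKO mice (log2 fold change 0.91). Aldh1a2, the retinoic acid synthesising enzyme of meninges, had means of 2.42 and 4.94 CPM (1.04), with 4 Egr1cKO mice above all controls.

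Receptors and guidance molecules formed another part. Lrp4, the agrin receptor and a modulator of Wnt signalling, had means of 45.0 and 63.9 CPM (log2 fold change 0.50), and 5 of 6 Egr1cKO mice lay above all controls. Plxnc1, the receptor of semaphorin 7A, had means of 50.6 and 69.3 CPM (0.45), again with 5 above all controls and male Egr1cKO 2 at 50.7 CPM inside the control range. Htr2a, the serotonin 2A receptor and a reported EGR target, had means of 15.1 and 20.8 CPM (0.47). Pcdhga2, a gamma protocadherin, had means of 5.43 and 9.64 CPM (0.79), but it shares exons with 20 other genes of the cluster, so that its reads are not its own alone. Ntn5, a netrin family member, was lower at 4.80 against 7.69 CPM (-0.68), and its exons overlap those of the opposite-strand gene Sec1.

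Hopx, a small homeodomain protein that marks quiescent neural stem cells, ran from 22.6 over 28.2 to 30.5 CPM in controls and from 33.7 over 37.2 to 47.9 CPM in Egr1cKO mice (log2 fold change 0.49, SE 0.0885, edgeR adjusted p = 0.127). Its groups did not overlap, and its exons overlap the opposite-strand gene Hopxos. Tmem64, a membrane protein, also showed no overlap, at 42.3 to 50.1 against 51.2 to 60.5 CPM, though the difference was only 0.29 on the log2 scale.

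The lower genes among the 20 had mixed roles. Mapk11, which encodes the p38-beta kinase, ran from 20.7 over 30.5 to 33.5 CPM in controls and from 15.5 over 19.4 to 22.3 CPM in Egr1cKO mice (log2 fold change -0.58, SE 0.121, edgeR adjusted p = 0.243), with 5 Egr1cKO mice below all controls. Telo2, a maturation factor of kinases related to phosphatidylinositol 3-kinase, showed no overlap at 35.3 to 42.4 against 24.3 to 32.8 CPM (-0.38). Aprt, the adenine salvage enzyme, had means of 26.1 and 18.4 CPM (-0.51). Stac2, a calcium channel adaptor, had 72.5 and 57.3 CPM (-0.34), and Etnppl, an astrocyte enzyme that breaks down phosphoethanolamine, had 14.8 and 9.99 CPM (-0.58). The noncoding Gm3294 did not overlap, at 3.41 to 5.53 against 1.37 to 3.25 CPM (-0.91).

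The other 3 of the 20 were near the limit of detection. Ccr6, a chemokine receptor, had no read in any control, 58, 27 and 29 reads in female Egr1cKO 1 to 3 and 21, 1 and 0 reads in male Egr1cKO 1 to 3. Summed over each group and against a floor of 3 reads over the 6 controls, it was at least 46.7-fold higher in Egr1cKO mice, but 1 Egr1cKO mouse was at 0 as the controls were. Ccr6 passed the filter on low counts only through the Egr1cKO mice, so that no weight rests on its rank. Slc27a5, a bile acid and fatty acid ligase, was at 0.605 CPM in controls and 0.150 CPM in Egr1cKO mice. Gm45774 was at 0.688 and 0.148 CPM, and it is annotated antisense to Mt2, from whose reads it cannot be told apart here. Slc27a5 and Gm45774 passed the filter on low counts only through the controls, so that no weight rests on their ranks either.

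The letters upstream of the leading genes were read for the element that EGR1 is known to bind, here GCGNGGGCG on either strand, in the 250 bases before the RefSeq start (GRCm38.p6). The element contains the GC box core GGGCG, so that a match is shared with other zinc finger factors. Egr1, Aqp4 and C4b had no window and so were not read for the element. Of the 24 leading genes, the 4 called and the next 20, 14 had a window in the table and 3 held the element. Over all windows it was held by 1543 of 32851, or 4.7%, and by 5.33% of genes with a window. The windows of these 3 genes are shown because no other of the 14 held the element, and capitals mark the match. They cover chr4:64047016-64047265 on the reverse strand for Tnc, chr14:54431348-54431597 on the forward strand for Mmp14 and chr10:94944846-94945095 on the reverse strand for Plxnc1, each written 5' to 3' along the gene.
Tnc: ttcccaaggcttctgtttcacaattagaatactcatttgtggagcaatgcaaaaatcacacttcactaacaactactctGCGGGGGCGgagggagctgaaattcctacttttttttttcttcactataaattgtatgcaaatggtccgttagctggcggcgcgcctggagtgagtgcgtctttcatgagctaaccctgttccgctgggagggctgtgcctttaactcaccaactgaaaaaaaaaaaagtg
Mmp14: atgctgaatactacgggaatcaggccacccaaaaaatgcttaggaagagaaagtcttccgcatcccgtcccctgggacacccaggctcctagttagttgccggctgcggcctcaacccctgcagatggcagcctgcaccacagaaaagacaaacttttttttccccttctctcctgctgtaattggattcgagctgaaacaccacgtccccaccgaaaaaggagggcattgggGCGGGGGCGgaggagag
Plxnc1: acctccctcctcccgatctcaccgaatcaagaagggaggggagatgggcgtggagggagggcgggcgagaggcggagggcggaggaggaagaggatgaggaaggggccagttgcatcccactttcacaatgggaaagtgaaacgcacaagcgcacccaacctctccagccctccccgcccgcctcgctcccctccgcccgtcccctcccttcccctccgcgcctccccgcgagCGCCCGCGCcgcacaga
The match begins 171 bases before the start in Tnc, and 250 bases before a second RefSeq start of Tnc whose window holds the same match and is not shown. It begins 17 bases before the start in Mmp14, and in both genes it reads GCGGGGGCG along the gene. In Plxnc1 it begins 17 bases before the start and lies on the other strand, as CGCCCGCGC. All 3 genes had higher means in Egr1cKO mice. Of 15 reported EGR1 target genes with a window, 6 held the element. A match describes the letters of a window and is not a binding site.

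Of each gene list below, members beyond the 4 with the smallest p were chosen for naming after their values were seen. The counts of each list are to be read beside the shares over all tested genes. At an unadjusted p under 0.05, 7.88% were higher and 7.88% lower. In 0.172% all Egr1cKO mice lay above all controls, and in 0.282% all lay below. Of the 6 EGR and NAB genes tested, Egr1 was the only one called, and 2, both lower, had an unadjusted p under 0.05. Nab2, the corepressor that EGR proteins induce, had means of 25.7 and 22.5 CPM (log2 fold change -0.19, SE 0.0899, edgeR adjusted p = 0.309), and its exons overlap 3 opposite-strand genes. Egr2, a paralogue, varied widely, from 3.10 over 5.51 to 10.9 CPM in controls and from 2.01 over 11.02 to 14.6 CPM in Egr1cKO mice, so that both the lowest and the highest mouse were Egr1cKO (0.74, SE 0.372, edgeR adjusted p = 0.337). Egr3, another activity-induced paralogue, had means of 149 and 172 CPM (0.19), and Egr4 had 59.7 and 66.7 CPM. These differences did not pass the test.

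Of 22 immediate early genes tested, none was called, 2 were higher and 1 lower at p under 0.05, and the median log2 fold change was 0.02, against -0.01 over all tested genes. The median was 0.15 without male Egr1cKO 1 and 0.12 without male control 3. The 2 were Nr4a2, an orphan nuclear receptor, at 61.8 and 76.9 CPM (0.27), and Dusp6, an ERK phosphatase, at 56.1 and 65.2 CPM (0.21). The lower gene was Ier5, at 53.1 and 42.7 CPM (-0.31, edgeR adjusted p = 0.262). Each overlapped between the groups.

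Of 22 genes reported elsewhere as EGR1 targets, none was called by edgeR, and 3 were higher and 1 lower at p under 0.05, with a median of 0.00. Beside Htr2a, the higher ones included Cdk5r1, the p35 activator of the kinase CDK5. Cdk5r1 ran from 262 over 266 to 308 CPM in controls and from 299.9 over 319 to 331 CPM in Egr1cKO mice (log2 fold change 0.20, edgeR adjusted p = 0.254), with a small overlap. Nab2 was the lower one.

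The Wnt, extracellular matrix and axon guidance lists follow themes that the study drew from these samples, so their directions are no independent evidence. Of 57 Wnt pathway genes tested, none was called, 9 were higher and 2 lower at p under 0.05, and the median log2 fold change was 0.10. Among receptors, Fzd3 showed no overlap, from 84.8 over 97.2 to 107.8 CPM in controls and from 108.2 over 112 to 132 CPM in Egr1cKO mice (0.26, SE 0.0655, edgeR adjusted p = 0.243). Fzd4, the norrin receptor of vessels and neurons, had means of 15.4 and 23.5 CPM (0.58). The coreceptor Lrp6 (0.26), the kinase gene Gsk3b (0.26), the scaffold gene Apc (0.36) and Znrf3, a ligase that removes frizzled receptors (0.34), were also higher at p under 0.05. Of the 2 lower genes, the ligand Wnt10a did not overlap, at 2.62 to 3.49 against 1.52 to 2.50 CPM (-0.62), and Dvl1, the cytoplasmic relay of the pathway, had means of 120 and 99.9 CPM (-0.26).

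Of 65 extracellular matrix genes tested, 1 was called, Tnc, and 18 were higher and 6 lower at p under 0.05, with a median of 0.18. In 4 of them, against 0.172% of all tested genes, all 6 Egr1cKO mice lay above all controls, namely Tnc, Hapln1, Mmp14 and Col1a2. Col1a2, a chain of type I collagen, ran from 5.34 over 8.20 to 9.32 CPM in controls and from 9.68 over 12.7 to 21.3 CPM in Egr1cKO mice (0.74, SE 0.170, edgeR adjusted p = 0.243). Reln, a large matrix protein secreted by Cajal-Retzius cells and interneurons, ran from 37.3 over 49.9 to 78.0 CPM and from 62.3 over 85.5 to 97.5 CPM (0.60). Thbs1 and Thbs2, secreted thrombospondins, had log2 fold changes of 0.91 and 0.59, and Ncan, the proteoglycan neurocan, 0.24. Among the 6 lower were Col5a3, a chain of type V collagen, at 5.37 and 2.64 CPM (-1.16), Col20a1 (-0.65) and Hapln2, the link protein of nodes of Ranvier (-0.47). A fit chosen after the data were seen had the summed level of the meningeal and fibroblast markers as a covariate. In it, 12 genes of the list were higher and 5 lower at p under 0.05, and none was called. The list's median was 0.08 there, against 0.18 without the covariate.

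Of 72 axon guidance genes tested, none was called, and 18 were higher and 4 lower at p under 0.05, with a median of 0.13. Among the receptors, Plxna2, which binds class 3 and class 6 semaphorins, had means of 131 and 167 CPM (0.35), Plxnd1 30.0 and 51.4 CPM (0.76) and the Slit receptor gene Robo1 58.6 and 83.2 CPM (0.50). Among the ligands, Sema3a stood at 15.5 CPM in male Egr1cKO 3 and at 2.705 to 6.32 CPM in the other Egr1cKO mice, against 2.59 to 4.18 CPM in controls, and its log2 fold change was 0.90 with that mouse included. Sema3d had 6.40 and 9.26 CPM (0.52) and Ntn1 8.88 and 11.3 CPM (0.35). The lower genes were Ntn5, Robo3, Epha10 and Sema4f, of which Robo3, a divergent Slit receptor family member, had means of 41.6 and 28.8 CPM (-0.56, SE 0.154, edgeR adjusted p = 0.243). All of the genes named here overlapped between the groups.

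Without male control 1, the edgeR fit called 7 extracellular matrix genes (6 higher, 1 lower), 5 axon guidance genes and 4 Wnt pathway genes. In the fit over all 12 mice these counts were 1, 0 and 0. Without male Egr1cKO 3 it called 3 extracellular matrix genes (2 higher, 1 lower).

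Of 35 MAPK pathway kinases and phosphatases tested, none was called. At p under 0.05, 4 were higher and 3 lower, against 7.88% of all tested genes on each side. The 3 lower included 2 genes of the p38 kinase family, Mapk11 (given above) and Mapk12, the latter at 5.64 and 4.27 CPM (log2 fold change -0.41). The higher ones included Map2k6, a kinase that activates p38, at 10.2 and 12.8 CPM (0.33), and Spred1, an inhibitor of Ras to ERK signalling, at 150 and 177 CPM (0.24). The list's median was 0.02.

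For receptors and synaptic genes of both main transmitters, the means are set beside those of all genes, of which 8775 of 18039 were higher in the mean. Of 25 glutamate receptor genes, 19 were higher in the mean, and 7 were higher and 1 lower at p under 0.05, with a median of 0.14 and no call. Grm3, a metabotropic receptor shared by astrocytes and neurons, had means of 32.1 and 47.6 CPM (0.55), and Grm5, a metabotropic receptor coupled to calcium release, 280 and 354 CPM (0.34). Of 20 GABA synapse genes, 19 were higher in the mean, and 8 were higher and 1 lower at p under 0.05, with a median of 0.15 and no call. Gabrb2, a receptor subunit, had means of 81.8 and 126 CPM (0.61), Gad2, a GABA synthesising enzyme, 121 and 151 CPM (0.32), and Slc12a5, the neuronal chloride exporter KCC2, 571 and 652 CPM (0.19). The lower gene was Gabrd, the subunit of extrasynaptic receptors in granule cells, at 28.4 and 23.7 CPM (-0.27, SE 0.0829, edgeR adjusted p = 0.254). With the fibroblast marker covariate, 4 GABA synapse genes were higher and 1 lower at p under 0.05, and the median was 0.14. Without male control 1, edgeR called 3 glutamate receptor genes and 1 GABA synapse gene. The sums of both lists overlapped between the groups. For GABA synapse genes, female control 1 and male control 1 stood at 4441 and 4504 CPM, above male Egr1cKO 2 and 3 at 4304 and 4216 CPM. For glutamate receptors, male control 1 had 5754 CPM and male Egr1cKO 3 had the lowest sum of all mice, 4442 CPM.

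Regulatory and stress lists gave no edgeR call. Of 18 circadian clock genes, 3 were higher at p under 0.05, Rora (log2 fold change 0.38), Clock (0.22) and Nr1d1 (0.14). Of 16 glucocorticoid-responsive genes, 2 were lower, the metallothionein gene Mt1 (-0.30) and the arrestin relative Arrdc2 (-0.51), and the median was -0.13. Of 13 heat shock genes 1 was lower, the chaperonin gene Hspe1 (-0.22), and of 20 interferon-stimulated genes none was on either side.

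**Figure D3:**
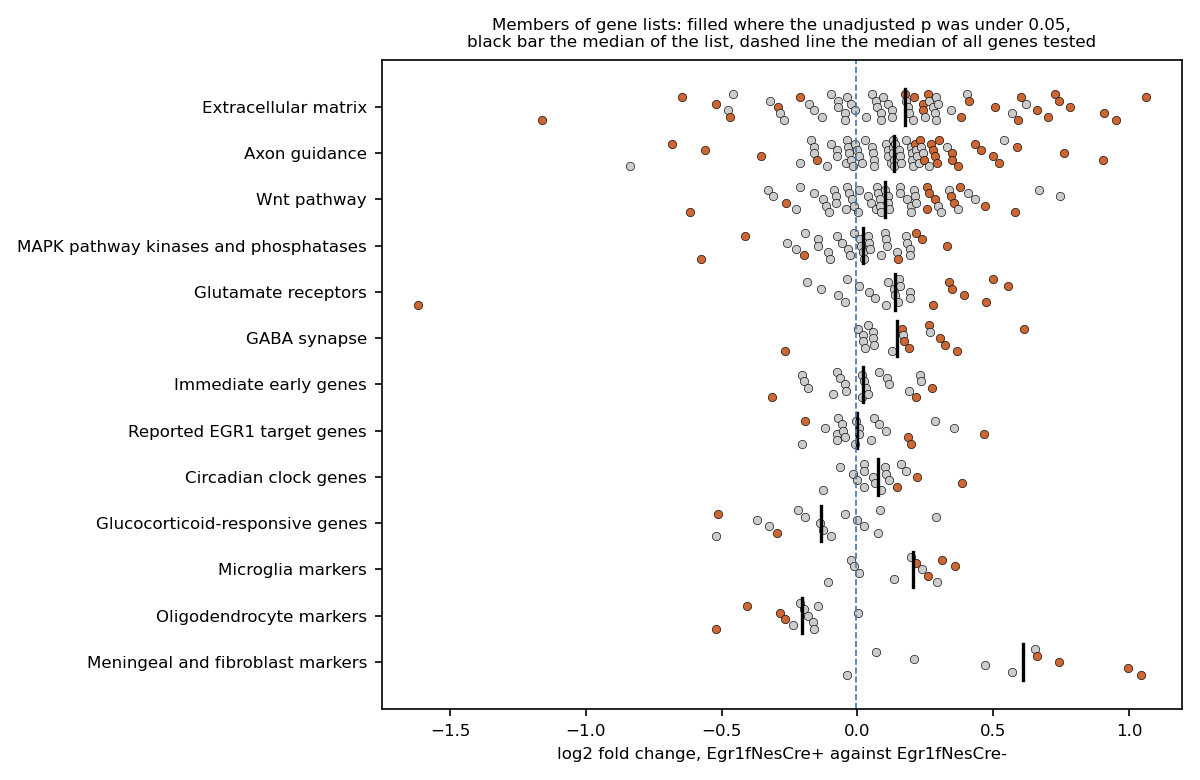
Log2 fold change of each tested member of 13 gene lists (points, filled where the unadjusted edgeR p was under 0.05) with the list's median (bar), Egr1cKO against floxed control mice, and the median of all tested genes (dashed line). The medians lie close to 0 for immediate early genes (0.02) and reported EGR1 targets (0.00), at 0.61 for meningeal and fibroblast markers and at -0.20 for oligodendrocyte markers.

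Cell type marker lists stood apart from the median of all genes to differing degrees. Of 10 meningeal and fibroblast markers, 9 were higher in the mean, against 8775 of 18039 of all genes. The median log2 fold change was 0.61, and 4 were higher at p under 0.05. They were Aldh1a2, Col1a1 (0.66), Col1a2 and the meningeal sulfate transporter gene Slc13a4 (1.00). Their summed level was 56.1 to 76.9 CPM in controls and 62.1 to 114 CPM in Egr1cKO mice. Col1a1 and Col1a2 are in both this list and the matrix list above. Fibroblast and matrix sums are set side by side for single mice, and whether they moved together was not tested. Matrix sums, at 4716 to 5704 CPM, were far larger, so that a shift of the size of the fibroblast sums would show little in them. Male control 1 had the lowest fibroblast sum, 56.1 CPM, and a matrix sum of 5178 CPM. Male control 3 had the highest fibroblast sum among controls, 76.9 CPM, and the lowest matrix sum, 4716 CPM. Among Egr1cKO mice, male 2 had the lowest of both sums, 62.1 and 4739 CPM. The part of the fibroblast level in the matrix genes and in the other results was not tested beyond the covariate fit. In that fit Egr1 alone was called. The median of the meningeal and fibroblast markers, whose sum was the covariate, was 0.26, against 0.61 without it. That of the matrix list was 0.08, against 0.18. For Aqp4, Tnc and C4b the log2 fold changes stayed close to those without the covariate. They were 0.80 for Aqp4 (SE 0.136, edgeR adjusted p = 0.178), 1.14 for Tnc (SE 0.185, edgeR adjusted p = 0.174) and -0.66 for C4b (SE 0.130, edgeR adjusted p = 0.384).

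Oligodendrocyte markers were lower in the mean in 11 of 12, against 9264 of 18039 of all genes, and lower at p under 0.05 in 4, with a median of -0.20. Mobp, a myelin protein gene, ran from 508 over 754 to 836 CPM in controls and from 395 over 535 to 614 CPM in Egr1cKO mice (log2 fold change -0.52, SE 0.121, edgeR adjusted p = 0.243). Mbp, the myelin basic protein gene, ran from 1900 over 2572 to 3018 and from 1581 over 1935 to 2224 CPM (-0.41), and Mag and Opalin had -0.27 and -0.29. Both leading genes overlapped between the groups. The summed markers stood at 4366 to 6406 CPM in controls and 3511 to 5111 CPM in Egr1cKO mice. With the fibroblast covariate 2 markers were lower at p under 0.05, and the median was -0.17. The median was -0.12, with 2 lower at p under 0.05, both without female control 1 and without male Egr1cKO 3, and without male control 1 edgeR called 2 of the markers. Of 7 precursor markers, Pdgfra (0.34) and Gpr17 (0.27) were higher and Olig2 (-0.23) lower at p under 0.05.

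Of 12 endothelial markers, 11 were higher in the mean, against 8775 of 18039 of all genes. At p under 0.05, 3 were higher, namely the VEGF receptor genes Flt1 (0.38) and Kdr (0.41) and the transporter gene Abcb1a (0.36). In the fit over all 24 mice none was under 0.05, with a median of 0.15, against 0.14 over the 12 mice. The summed markers stood at 305 to 347 CPM in controls and 348 to 408 CPM in Egr1cKO mice. They narrowly did not overlap, with the highest control at 346.9 CPM and the lowest Egr1cKO mouse at 348.3 CPM. Of 12 microglial markers, 9 were higher and 3 lower in the mean, and 4 were higher at p under 0.05. Csf1r, the receptor of the microglial survival factor, did not overlap, from 79.1 over 87.6 to 93.9 CPM in controls and from 95.5 over 100.1 to 110 CPM in Egr1cKO mice (0.22), and Cx3cr1 (0.26) and Sall1 (0.36) overlapped. None of these genes was called.

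Among 11 astrocyte markers, Aqp4 rose and Gja1, the connexin 43 gene, was higher at p under 0.05, from 169 over 196 to 244 CPM in controls and from 230 over 271 to 281 CPM in Egr1cKO mice (0.35). Aldoc, a glycolytic enzyme gene, was lower at 731 and 642 CPM (-0.19). The summed astrocyte markers overlapped, at 4613 to 6243 and 4845 to 6444 CPM, and Gfap, the intermediate filament gene raised in reactive astrocytes, ran from 288 over 378 to 412 and from 270 over 412 to 512 CPM.

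Of 14 progenitor and immature neuron markers, 8 were higher and 6 lower in the mean, with a median log2 fold change of 0.09. At p under 0.05, 5 were higher, namely Hopx, Nes (0.31), Dcx (0.33), Sema3c (0.28) and Sox11 (0.19). The sums of the list were 211 to 234 CPM in controls and 235 to 261 CPM in Egr1cKO mice. They narrowly did not overlap, with the highest control at 233.8 CPM and the lowest Egr1cKO mouse, female 1, at 234.6 CPM. The sum of that mouse includes 47.9 CPM of Hopx, a gene ranked by p in these same mice. The lack of overlap is thus not independent of Hopx. Nes encodes nestin, whose promoter drives the transgene. Of 10 interneuron markers, Reln and Nos1 (0.37) were higher, and Pvalb (-0.40) and Cort, the cortistatin gene (-0.69), were lower at p under 0.05. Cort did not overlap, at 3.872 to 6.83 CPM in controls and 2.32 to 3.869 CPM in Egr1cKO mice.

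Of 20 hippocampal neuron markers, 3 were higher, among them Wfs1 (0.29) and Tbr1 (0.27), and 1 was lower at p under 0.05, with a median of -0.02. Without male Egr1cKO 3, 8 were higher and 0 lower at p under 0.05, and the median was 0.12. Markers of neighbouring tissue varied widely between mice of both genotypes. Choroid plexus markers ran from 42.7 to 1073 CPM in controls and 38.03 to 1183 CPM in Egr1cKO mice, and striatal markers reached 225 CPM in male Egr1cKO 3, against 77.5 to 115 CPM in the other Egr1cKO mice. Of the choroid plexus, striatum, thalamus, hypothalamus and blood markers, none was called.

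**Figure D4:**
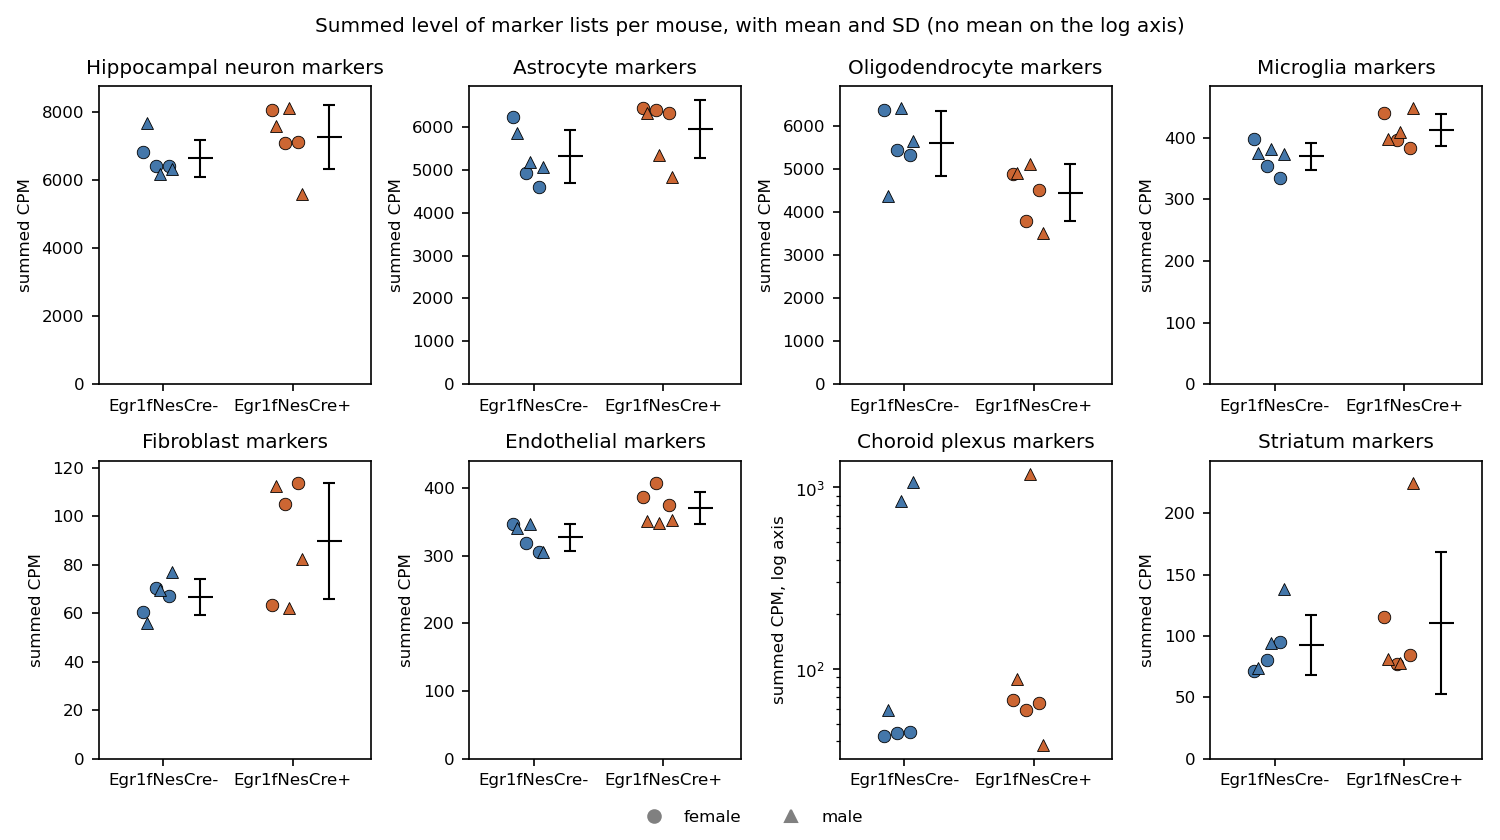
Summed CPM of cell type marker lists in each of the 12 mice, with 1 point per mouse, sexes marked apart, mean and SD, and a log axis for the choroid plexus. Endothelial sums narrowly do not overlap between genotypes (346.9 against 348.3 CPM), and fibroblast and oligodendrocyte sums overlap in part. Choroid plexus sums are high in male controls 2 and 3 (844 and 1073 CPM) and in male Egr1cKO 2 (1183 CPM).

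Genes beside Egr1 on chromosome 18 were listed for their position. Of 18 genes within 0.734 Mb, 17 were tested and none was called, with 2 higher and 1 lower at p under 0.05. Fam13b had 50.6 and 61.1 CPM (log2 fold change 0.27), the synaptic adhesion gene Lrrtm2 59.2 and 68.3 CPM (0.20) and the translation release factor gene Etf1 83.0 and 73.9 CPM (-0.17).

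Of 18 genes that the text of the study names, chosen on these samples, none was called by edgeR and 4 were called by DESeq2, and without male control 1 edgeR called 6 (3 higher, 3 lower). At p under 0.05, 3 were higher and 4 lower. The higher ones were Ptpn14, a tyrosine phosphatase gene, at 17.0 and 25.3 CPM (0.58), Cntnap5b, of the contactin-associated family (0.58), and Ids, the lysosomal iduronate sulfatase gene, at 474 and 585 CPM (0.30). The lower ones were Mapk11, Col5a3, Neat1, a nuclear noncoding RNA (-0.48), and Gm42772, at 1.87 and 0.686 CPM (-1.45).

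Within females, edgeR called 3 of 18622 genes (0.0161%), and within males it called 1 (0.00537%). Egr1 was called in both, with a log2 fold change of -3.39 in females and -3.76 in males. Muc3a, a membrane mucin gene, fell in females, from 10.7 to 14.6 CPM over the 6 controls to 3.73, 3.31 and 3.46 CPM in the female Egr1cKO mice (-1.74, SE 0.197, edgeR adjusted p = 0.002), and stood at 8.08, 11.5 and 14.0 CPM in the males. Fzd4 rose in females, from 11.6 to 18.2 CPM over the 6 controls to 26.5, 33.0 and 25.5 CPM (1.04, SE 0.155, edgeR adjusted p = 0.0416), and stood at 16.8, 21.9 and 17.2 CPM in the male Egr1cKO mice. The difference between sexes itself passed for no gene in edgeR (0%), although 785 had an unadjusted p under 0.05. For Fzd4 it was 0.90 (females minus males, edgeR adjusted p = 0.999, DESeq2 adjusted p = 0.427). For Muc3a it was -1.58 (females minus males, edgeR adjusted p = 0.49), and DESeq2 gave it an adjusted p of 0.00176 and called 3 genes in all. With the main settings, a difference in response between the sexes was thus seen for Muc3a in DESeq2 and not in edgeR. The count of edgeR interaction calls also shifted with the filter and with single mice, as given in the last section.

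All 24 leading genes had the same sign in females and males, against 63.6% of all tested genes. The sign was part of what ranked them, since both sexes entered the fit, so that no weight rests on this. The larger size was in females in 16 of them (66.7%), against 59% of all tested genes. None of the 24 had an unadjusted interaction p under 0.05 in edgeR.

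The other 12 mice, in which Cre was present or absent beside wild type Egr1, gave the same contrast of Cre without the floxed alleles. In a fit over all 24 mice, the Egr1cKO difference minus the Cre-alone difference passed for 1 of 18766 genes (0.00533%), Egr1, at -3.21 (edgeR adjusted p = 1.26e-06), and 3534 genes had an unadjusted p under 0.05. DESeq2 called 36. Cre alone gave no edgeR call, with 1120 genes at an unadjusted p under 0.05, and 8 calls in DESeq2. Of the 24 leading genes, 14 (58.3%) had the same sign with Cre alone, against 35.7% of all tested genes.

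Some leading genes had differences of like size in the pair that had wild type Egr1. Hopx differed by 0.48 (log2, SE 0.0927, edgeR adjusted p = 0.173) with Cre alone, so that the difference of differences was 0.02 (edgeR adjusted p = 0.96). It ran from 24.4 over 26.5 to 32.1 CPM in wild type mice and from 33.2 over 37.95 to 42.7 CPM with Cre, again with no overlap. Mmp14 (0.56) and Tgfbi (0.73) also had higher means with Cre alone, and their differences of differences were 0.21 and 0.19 (edgeR adjusted p = 0.711 and 0.772).

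Aqp4, Tnc and C4b lay between. With Cre alone Aqp4 differed by 0.41 (SE 0.110, edgeR adjusted p = 0.669), from 124 to 180 CPM without Cre to 149 to 227 CPM with it, and the difference of differences was 0.42 (edgeR adjusted p = 0.166). For C4b the values were -0.34 with Cre alone and -0.35 beyond it (edgeR adjusted p = 0.26). For Tnc they were 0.26 and 0.80 (edgeR adjusted p = 0.152). None of the 3 passed the adjusted test of the difference from Cre alone.

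Other leading genes had the opposite sign with Cre alone. Mapk11 differed by 0.31 with Cre alone and by -0.88 beyond it, and Tmem64 by -0.14 and 0.44. Htr2a had -0.22 and 0.69, Pcdhga2 -0.36 and 1.17, and Ntn5 0.32 and -0.998. Of the 20 genes past the 4 called, 13 had an unadjusted edgeR p under 0.05 for the difference from Cre alone, and the lowest adjusted p was 0.152. DESeq2 called Mapk11 and Tmem64 in this contrast, each with an adjusted p of 0.00814.

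**Figure D5:**
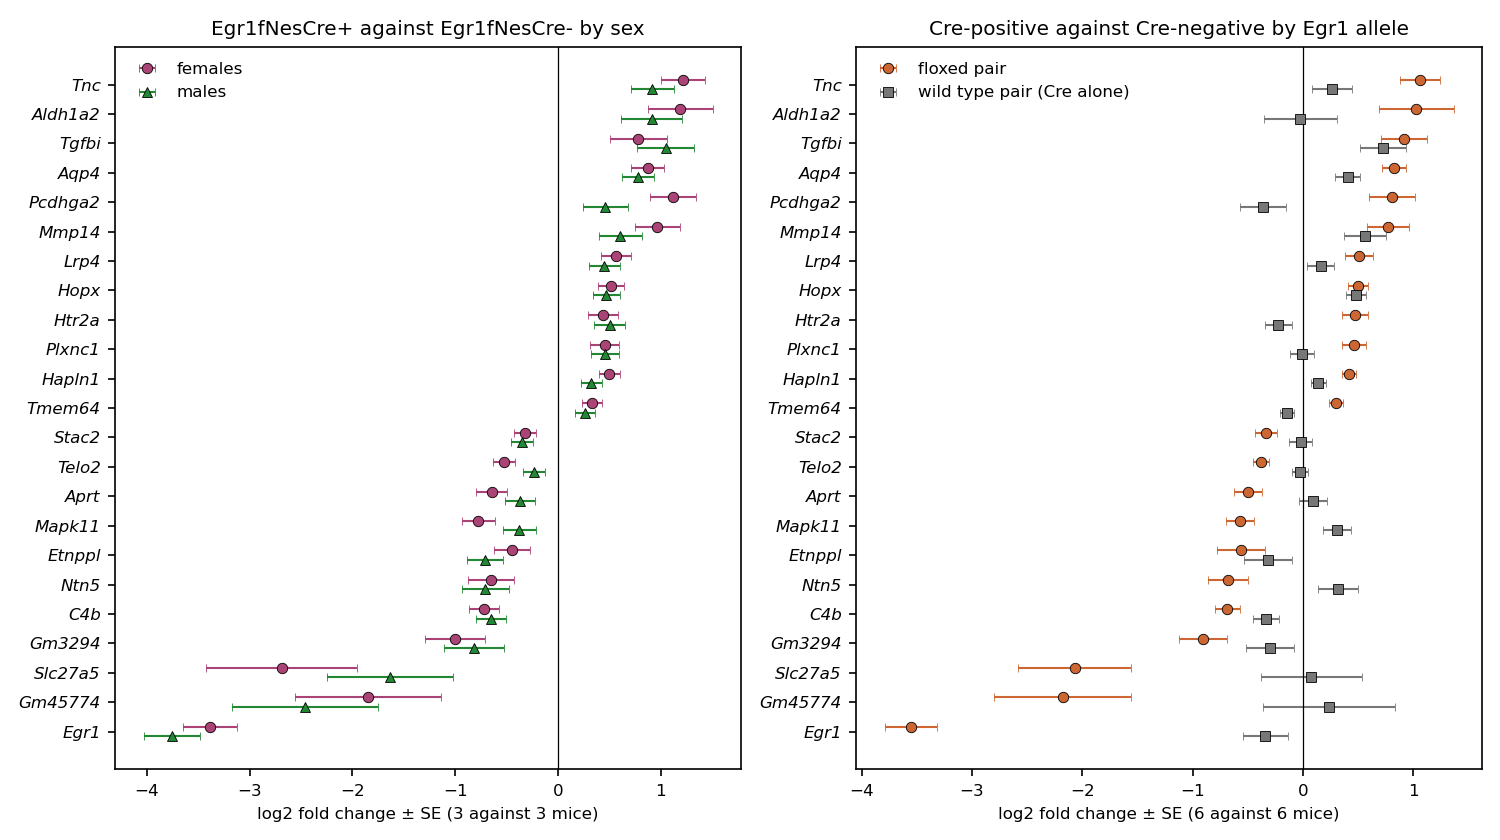
Log2 fold changes of the leading genes other than Ccr6, with bars of 1 SE, for females and males of the floxed pair (left) and for the floxed and wild type pairs in the 24-mouse fit (right). Signs are alike in both sexes, whereas Mapk11 at 0.31 and Tmem64 at -0.14 have the opposite sign with Cre alone, and Hopx lies at 0.48 beside its value in the floxed pair.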

How the data were processed

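Hippocampal RNA of separate mice was sequenced in non-stranded libraries. Per the labels, reads were trimmed with Trim Galore 3.8.2, checked with FastQC and aligned with STAR 2.7.9 to GRCm38, while the methods of the study give other versions of Trim Galore and STAR. The authors deposited raw counts per Ensembl gene for all 24 mice in 1 table, and the annotation used for counting is not given in the sources used here. Of 36605 genes, 36477 were matched to a symbol. Non-stranded counting leaves reads of overlapping genes on opposite strands together.

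Counts of the 12 mice were fitted in edgeR 4.0.16 (R 4.3.3) with TMM scaling, filterByExpr with a minimum count of 10, and a quasi-likelihood model with sex and genotype. A gene was called at a Benjamini-Hochberg adjusted p of 0.05 and a fold change of at least 1.2, the thresholds of the study. Levels are TMM-scaled CPM. Sex-specific values and the interaction came from a model with a genotype by sex term, and the difference from Cre alone from a fit over 24 mice. The exact permutation test used log2(CPM + 1). Two-sided tests were used throughout. Depth, 18025168 to 34955004 reads per mouse, limits the precision of genes under about 1 CPM. No 2 libraries of the same genotype and sex agreed within sampling noise (chi-square per degree of freedom 5.04 to 42.0). The scripts were tested on simulated counts.

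Named genes were Egr1, the called genes, the genes next by p up to 24 in all, up to 4 of each list with the smallest p, and the genes named in the text of the study, and others were named after their values were seen. The members and lists were chosen with earlier results of these data known. Alternatives were DESeq2 1.42.0, DESeq2 size factors, no filter on low counts, no sex term, all mice in 1 fit, replicate numbers as a block, other fold change minimums and each mouse left out. A fit with the summed meningeal and fibroblast markers as a covariate and limma 3.58.1 (voom) were added after the data were seen. Promoter windows were taken from RefSeq (GRCm38.p6). Some genes of the lists are not reported here by name.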

Additional observations from a re-analysis of the deposited data

Results flagged for a closer look

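In 77 groups of 6 values, being the leading genes and the marker sums of each genotype, 7 had a mouse far from the other 5 by Dixon's criterion. Chance gives about 1 in 20. Hopx stood at 47.9 CPM in female Egr1cKO 1, above the other Egr1cKO mice, and Plxnc1 at 50.7 CPM in male Egr1cKO 2, below the others. Etnppl stood at 21.3 CPM in female control 3. The summed choroid plexus markers were 1183 CPM in male Egr1cKO 2, against 38.03 to 88.3 CPM in the other Egr1cKO mice. Male controls 2 and 3 were also high, at 844 and 1073 CPM. They were not flagged, since the criterion tests the gap of a single extreme mouse. The summed hypothalamus markers were 14.8 CPM in male control 2, against 1.63 to 4.09 CPM in the other controls. The summed striatum markers were 138 CPM in male control 3, against 71.9 to 95.4 CPM in the other controls, and 225 CPM in male Egr1cKO 3, against 77.5 to 115 CPM in the other Egr1cKO mice. The part of these mice in other results was not tested beyond leaving each out. The effect of Cre on Egr1 differed between floxed and wild type alleles by -3.21 on the log2 scale, by the test of the difference itself (edgeR adjusted p = 1.26e-06).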

How the results depend on the processing

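The 4 calls over 12 mice became 61 in DESeq2, 808 without the filter on low counts (797 of them among genes that the filter keeps), and 1 with the meningeal and fibroblast marker covariate, and the cause of these shifts was not tested. The count was 4 with DESeq2 size factors, without a fold change minimum, with a minimum of 1.5 and in limma-voom, 3 without the sex term and 6 with all 24 mice in the fit. Leaving out 1 mouse at a time gave 1 to 327 calls, the lowest without male control 2 and the highest without male control 1. With replicate numbers as a block it was 9 (7 higher, 2 lower, the 4 among them), but the numbers did not pair the mice: deviations of mice with the same number correlated at -0.13 to -0.06 in females and -0.09 to 0.24 in males, over genes. Within females the 3 calls became 61 in DESeq2, 658 without the filter and 2 to 139 without 1 mouse (139 without female control 1). Within males the 1 call became 2 in DESeq2, 103 without the filter and stayed at 1 without any 1 mouse. The 0 interaction calls became 3 in DESeq2, 59 without the filter and 0 to 2 without 1 mouse. The 1 call for the difference from Cre alone became 36 in DESeq2, 1173 without the filter and 1 to 381 without 1 mouse (381 without male control 1). Size factors from DESeq2 changed neither of the last 2 counts. Over 19 alternatives for the 12-mouse fit, Egr1 was called in 19, Aqp4 in 17, Tnc in 14 and C4b in 12, Hapln1 in 5 and Hopx in 6, and none of the 24 leading genes changed sign. The genes were ranked by p in these same mice, so that no weight rests on the kept signs. The difference of Egr1 in mean log2 level, -3.37, was -3.40 without TMM scaling and -3.46 to -3.23 without 1 mouse.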
